A study of Mus musculus with 4 samples.

Results

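The insulin-like growth factor genes described here are the ligand Igf1, its receptor Igf1r and 6 genes of the binding protein family, Igfbp2 to Igfbp7. They were picked by symbol, and all 8 were among the 32285 genes of the deposited count tables. Their expression was measured by spatial transcriptomics, in which the RNA of a frozen section is caught on barcoded spots, so that a spot holds several cells and no value belongs to a single cell. The sections came from ovaries of outbred CD-1 mice. One group was aged animals of 15 to 16 months and the other young animals of 3 to 4 months, with 4 animals per age, 1 section per animal and no treatment or engineered allele named in the labels. Each of 4 capture areas held 1 aged and 1 young section, which are numbered by their area. The comparisons ask where in the ovary each gene was transcribed, and whether its level differed with age.

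Insulin-like growth factor 1 is a secreted peptide that signals through a receptor tyrosine kinase, IGF1R. In the ovary it is known for acting with follicle-stimulating hormone on granulosa cells, the somatic cells that surround the oocyte. Most of the peptide outside cells is held by binding proteins, which prolong its life, carry it or keep it from the receptor. Proteases such as PAPP-A cut some of the binding proteins and free the ligand, and stanniocalcins inhibit those proteases. IGFBP7 binds insulin-like growth factors only weakly.

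The sections held 257 to 653 spots in aged and 532 to 762 in young animals, with total counts of unique molecules (UMIs) of 2777948 to 9506517 and 9702600 to 21619232. Levels are given as CPM, a gene's UMIs scaled to a common total over the section or over the named spots. In bulk sums of this kind, fewer cells of a type and less RNA per cell cannot be told apart. Ages were taken from the side of the array that the labels give, and if an image had been rotated before deposit, aged and young would be swapped in that area. The summed oocyte markers (12 of 12 measured) were at 488 CPM in aged section 3 against 36.4 CPM in young section 3. In the other areas they were at 33.0 to 41.1 CPM in aged and 182 to 561 CPM in young sections. Of 15 marker lists, 10 ran one way with age in areas 1, 2 and 4, and in area 3 the summed levels of 7 of these ran the opposite way and 3 the same way. The lipid-laden macrophage list was at 1655 CPM in aged and 3670 CPM in young section 3, where the other areas had 2838 to 4991 CPM in aged and 1943 to 2455 CPM in young sections. The theca and interstitial, macrophage, T and NK cell, B and plasma cell and erythrocyte lists were the other 5 that ran opposite. The endothelium list, at 508 CPM in aged and 994 CPM in young section 3, ran as in the other areas, as did the adipocyte (161 and 81.1 CPM) and the smooth muscle and pericyte list. Whether the sides of area 3 were exchanged cannot be told from these values, and the tests by age, other than the interactions, were repeated without it. All 14 granulosa, 11 corpus luteum and 12 stromal fibroblast markers were measured in the tissue, with summed levels of at least 1547, 15087 and 929 CPM in every section.

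The 250 bases before the RefSeq start (GRCm38.p6) are printed for 4 binding protein genes, because Igfbp4, Igfbp6 and Igfbp7 varied together among spots while Igfbp5 had the largest fold change of the 8 genes between spot classes. Capitals mark GC boxes (GGGCGG) and TATA boxes (TATAAA) on either strand, and the 2 motifs cannot overlap each other.
Igfbp4: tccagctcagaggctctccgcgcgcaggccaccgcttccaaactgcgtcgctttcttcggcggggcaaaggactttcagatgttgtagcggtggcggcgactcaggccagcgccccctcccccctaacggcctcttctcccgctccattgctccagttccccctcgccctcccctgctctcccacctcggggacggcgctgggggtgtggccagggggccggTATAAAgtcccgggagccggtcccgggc
Igfbp6: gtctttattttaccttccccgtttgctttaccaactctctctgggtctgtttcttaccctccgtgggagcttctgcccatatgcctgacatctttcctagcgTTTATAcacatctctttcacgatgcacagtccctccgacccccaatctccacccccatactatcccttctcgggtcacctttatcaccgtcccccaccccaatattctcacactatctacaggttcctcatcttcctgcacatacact
Igfbp7: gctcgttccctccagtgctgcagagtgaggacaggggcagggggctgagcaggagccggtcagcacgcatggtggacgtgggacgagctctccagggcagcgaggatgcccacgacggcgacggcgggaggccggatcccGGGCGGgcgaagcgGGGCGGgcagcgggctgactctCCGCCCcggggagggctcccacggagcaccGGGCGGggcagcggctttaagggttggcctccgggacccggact
Igfbp5: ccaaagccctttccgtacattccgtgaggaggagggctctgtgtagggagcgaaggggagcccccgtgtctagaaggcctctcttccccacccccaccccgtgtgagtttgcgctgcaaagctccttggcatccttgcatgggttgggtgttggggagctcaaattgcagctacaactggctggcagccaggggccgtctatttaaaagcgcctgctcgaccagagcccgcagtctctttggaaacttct
These windows lie at chr11:99040994-99041243 (plus strand) for Igfbp4, chr15:102143936-102144185 (plus) for Igfbp6, chr5:77408046-77408295 (minus) for Igfbp7 and chr1:72874866-72875115 (minus) for Igfbp5. The Igfbp7 window holds 4 GC boxes, the Igfbp4 and Igfbp6 windows 1 TATA box match each, and the Igfbp5 window neither. The Igfbp4 match is on the printed strand, close to the end of the window that borders the start. The Igfbp6 match (TTTATA) is on the opposite strand and near the middle of the window. Of 32851 promoters of the same length, 32.7% hold a GC box and 12.4% a TATA box, and the 3 genes that varied together did not all share either motif. The cAMP response core (TGACG, in 17.8% of the promoters), the Nr5a site (AAGGTCA, in 4.08%) and the E-box (CACGTG, in 6.02%), searched on both strands, were in none of these 4 windows. All 8 genes matched a RefSeq entry, Igfbp2 with a pair of starts. The RefSeq starts of Igfbp6 and Igfbp7 lie outside the GENCODE transcripts of those genes, which begin at 102144362 for Igfbp6 and at 77408041, on the minus strand and next to the printed window, for Igfbp7. The RefSeq start of Igf1r and the first of the pair for Igfbp2 also lie outside the GENCODE transcripts of their genes. Igfbp2 (72824503 to 72852474, plus strand) and Igfbp5 (72857932 to 72874884, minus strand) are neighbours on chromosome 1 in GENCODE M21 (mm10). Igfbp3 and Igfbp4 are both on chromosome 11, at 7206086 to 7213923 and 99041244 to 99054392. Igf1 lies on chromosome 10 at 87858265 to 87937042 and Igf1r on chromosome 7 at 67952827 to 68233668.

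The 8 genes were set against the tissue of the ovary in 9 classes of marker-rich spots. Each class is the 10% of spots per section with the highest summed CPM of a marker list (419 spots in all), and was compared with the rest of the same sections. A class is a range of a score and not a cell type, with 84 to 544 spots within 10% of the cut, and neighbouring classes share spots: 51.6% between corpus luteum and theca and interstitial, 37.5% between smooth muscle and stromal fibroblast. Counts were summed per section and class and compared by edgeR's quasi-likelihood test with section as a factor, Benjamini-Hochberg adjusted over all genes tested, at a threshold of 0.05. A log2 fold change is of marker-rich spots over the rest, with its standard error (SE), and rests on 8 sections. Each SE of an edgeR fold change was derived as its absolute value divided by the square root of the test's F statistic. The number of tests was 72, and 34 passed, where 7.19% to 43.9% of all genes tested passed in the same 9 comparisons. Of these 34, 17 also passed under all 13 alternatives tried.

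**Figure D1:**
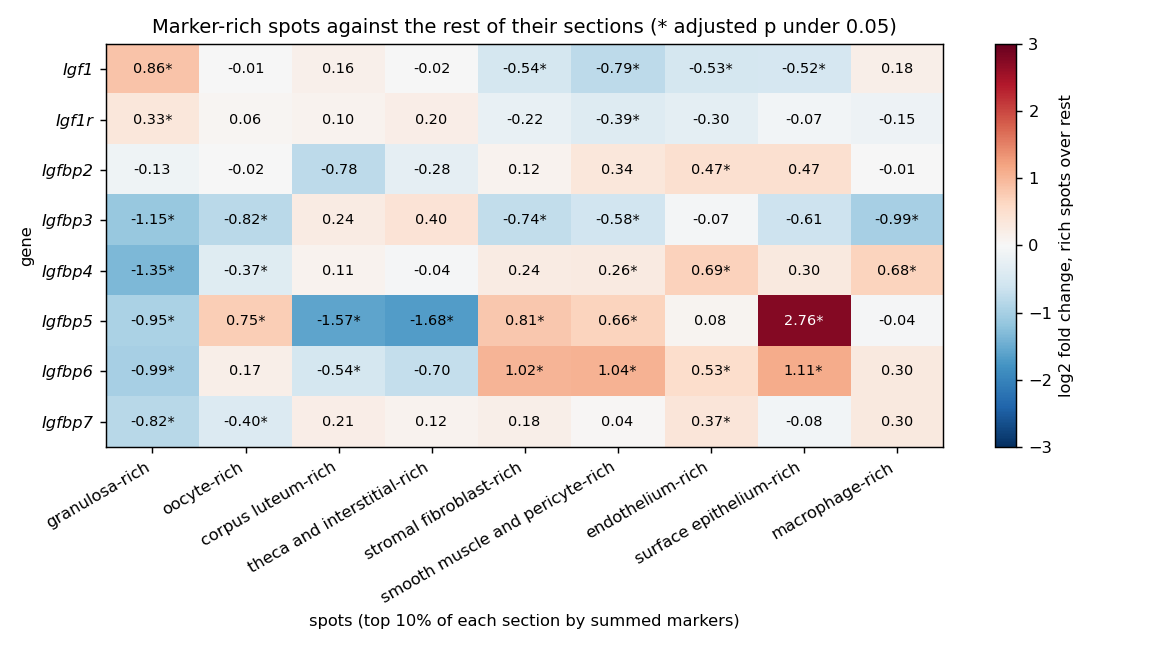
Log2 fold change of each gene (rows) in marker-rich spots over the rest of the sections (columns, 9 marker lists; 8 sections each), with an asterisk where the edgeR adjusted p was under 0.05. Igfbp5 ranged from -1.68 in theca and interstitial-rich to 2.76 in surface epithelium-rich spots, and Igf1 was at 0.86 in granulosa-rich and at -0.79 in smooth muscle and pericyte-rich spots.

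In granulosa-rich spots Igf1 was higher and 5 of the 6 binding protein genes were lower. Igfbp3, Igfbp4, Igfbp6 and Igfbp7 were lower in every section, and Igfbp5 was lower in all but 1. Of all 11522 genes tested, 43.9% passed in this comparison (21.2% higher and 22.7% lower), beside 7 of the 8 genes here (2 higher and 5 lower). Whether the 8 genes as a set differ from that background was not tested. Granulosa-rich spots had a median of 20024 UMIs and the rest 17407.

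Igf1 was at 97.0 to 429.6 CPM (median 169) in granulosa-rich spots and at 62.2 to 166 CPM (median 97.3) in the rest. It was the higher in 7 of 8 sections, the exception being aged section 2, though the ranges over sections overlap. The log2 fold change was 0.86 ± 0.19 (SE; edgeR adjusted p = 0.0027). With the top 20% of spots taken instead, it was 0.52 (adjusted p = 0.0972). The receptor gene Igf1r was at 55.7 to 163 CPM (median 103) against 58.1 to 133 CPM (median 69.3). Its log2 fold change of 0.33 ± 0.13 was at an edgeR adjusted p of 0.0489, and 9 of 13 alternatives ended the call. Leaving out aged section 3 or any young section did so, with adjusted p of 0.0738 to 0.151.

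Igfbp4, whose product mainly inhibits the ligand and is a target of PAPP-A, was at 97.4 to 619 CPM (median 145) in granulosa-rich spots and 248 to 1180 CPM (median 409.8) in the rest. It was lower in 8 of 8 sections, aged and young alike. The log2 fold change was -1.35 ± 0.11 (edgeR adjusted p = 7.76e-07). Igfbp6, which prefers insulin-like growth factor 2, was at 57.8 to 196 CPM against 108 to 308 CPM (-0.99 ± 0.12). Igfbp7 was at 383 to 1204 CPM against 707 to 1355 CPM (-0.82 ± 0.12). These 2 genes were also lower in all 8 sections, with edgeR adjusted p of 1.54e-05 and 0.000113. Igfbp3, the main carrier in blood, was at 5.29 to 85.3 CPM against 13.0 to 206 CPM (-1.15 ± 0.18, adjusted p = 0.00017). Igfbp5 was at 31.7 to 106 CPM against 69.0 to 290 CPM (-0.95 ± 0.21, adjusted p = 0.00231). Igfbp3 and Igfbp5 lost the call with the top 20% of spots (adjusted p = 0.058 and 0.0515). Igfbp2 did not pass (-0.13, adjusted p = 0.613), with the higher value in granulosa-rich spots in 5 of 8 sections.

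**Figure D2:**
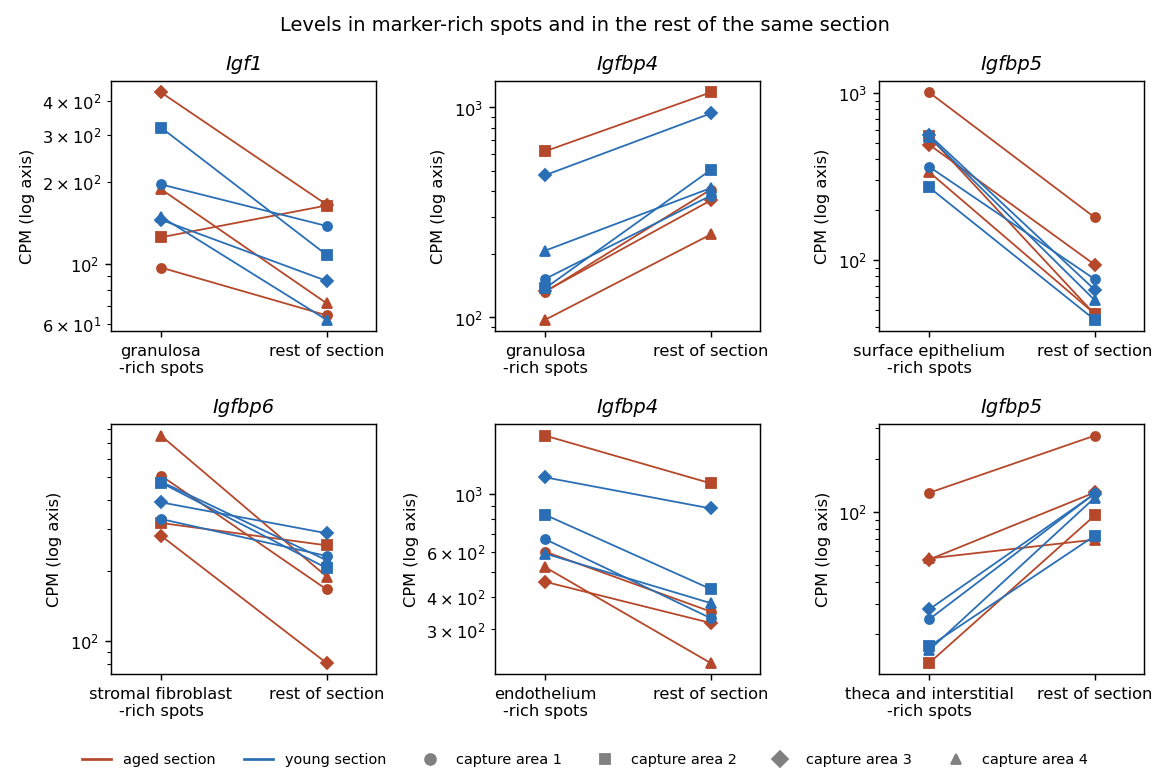
CPM (log axis) of 6 gene and class pairs in the marker-rich spots (left) and the rest of the same section (right), each line 1 section, coloured by age and marked by capture area. The Igfbp5 lines of surface epithelium-rich spots all fall from left to right, and Igf1 in granulosa-rich spots falls in 7 of 8 sections.

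Among spots rich in surface epithelium markers, Igfbp5 and Igfbp6 were higher. The class was set by its markers, and the distance of its spots from the section edge was not measured. The product of Igfbp5 binds extracellular matrix and can either inhibit or favour the ligand. In surface epithelium-rich spots Igfbp5 was at 272 to 1007 CPM (median 519), against 43.9 to 180 CPM (median 62.0) in the rest. The lowest marker-rich value thus lay above the highest of the rest, and it was higher in 8 of 8 sections. The log2 fold change was 2.76 ± 0.14 (edgeR adjusted p = 5.82e-09), and 2.26 to 2.84 under the 13 alternatives. The background was 17.2% of 11571 genes (7.96% higher and 9.2% lower). Igfbp6 was also higher there in 8 of 8 sections, at 311 to 566 CPM against 80.4 to 273 CPM (1.11 ± 0.14, adjusted p = 0.00011). Igf1 was lower, at 44.5 to 119 CPM against 67.5 to 211 CPM (-0.52 ± 0.17, adjusted p = 0.0455), a call that 8 of 13 alternatives ended. Leaving out aged section 2 or 3 or young section 1, 2 or 4 did so, with adjusted p of 0.0873 to 0.122. The median depth was 17944 UMIs in marker-rich spots and 17702 in the rest.

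In the steroid-producing compartments Igfbp5 was lower. In theca and interstitial-rich spots it was at 13.7 to 129 CPM (median 26.1) against 69.5 to 272 CPM (median 124), and it was lower in 8 of 8 sections (log2 fold change -1.68 ± 0.25, edgeR adjusted p = 0.00119; background 20.8%, of which 10.3% higher and 10.5% lower). No other of the 8 genes passed in this class. In corpus luteum-rich spots, where the gland formed after ovulation is found, Igfbp5 was at 12.9 to 156 CPM against 73.1 to 273 CPM (-1.57 ± 0.25, adjusted p = 0.000998; background 26.4%, of which 13.8% higher and 12.6% lower). Igfbp6 was at 67.6 to 236 CPM against 101 to 308 CPM (-0.54 ± 0.15, adjusted p = 0.0223). That second call was lost without young section 1 (-0.52, adjusted p = 0.0564) or young section 2 (-0.47, adjusted p = 0.0672). Depth differed here, with medians of 27763 UMIs in corpus luteum-rich spots and 16760 in the rest, and its part in the result was not tested.

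In all 3 connective and vascular classes Igfbp6 was higher and Igf1 was lower. Stromal fibroblast-rich spots (background 21.7%, of which 10.3% higher and 11.5% lower) had Igfbp6 at 282 to 752 CPM (median 432) against 80.9 to 289 CPM (median 213), higher in 8 of 8 sections (1.02 ± 0.15, edgeR adjusted p = 9.57e-05). Igfbp5 was at 104 to 279 CPM against 61.4 to 258 CPM (0.81 ± 0.15, adjusted p = 0.000727). Igf1 (-0.54) and Igfbp3 (-0.74) were lower, with adjusted p of 0.0042 and 0.000503. Smooth muscle and pericyte-rich spots (background 24.8%, of which 12.4% higher and 12.4% lower) also had higher Igfbp6, at 153 to 772 CPM against 94.7 to 297 CPM (1.04 ± 0.17, adjusted p = 0.000103). Igf1 was lower there in 8 of 8 sections, at 39.0 to 109 CPM against 70.6 to 214 CPM (-0.79 ± 0.10, adjusted p = 9.93e-06). The further smooth muscle calls were Igfbp5 (0.66), Igfbp4 (0.26), Igf1r (-0.39) and Igfbp3 (-0.58). Each was lost without young section 2, at 0.53, 0.26, -0.34 and -0.51 (adjusted p = 0.106, 0.0825, 0.0611 and 0.0866). Igfbp5 was also lost without aged section 2 or young section 4, Igfbp4 without aged section 1, 2 or 4 or young section 4, and Igfbp3 without aged section 1 or 4 (adjusted p = 0.07 to 0.154). DESeq2 ended the Igfbp5 and Igfbp3 calls (DESeq2 adjusted p = 0.292 and 0.0904). The top 20% of spots ended the Igfbp5 call (edgeR adjusted p = 0.114). Median depth was 11409 UMIs in smooth muscle-rich spots (18634 in the rest) and 12869 UMIs in stromal fibroblast-rich spots (18264 in the rest).

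Endothelium-rich spots, where blood vessels are found (background 17.3%, of which 9.46% higher and 7.88% lower), had higher Igfbp4 in 8 of 8 sections, at 459 to 1682 CPM (median 634) against 223 to 1101 CPM (median 366). The log2 fold change was 0.69 ± 0.10 (edgeR adjusted p = 8.53e-05). Igfbp2, Igfbp6 and Igfbp7 were higher in 7 of 8 sections each, by 0.47, 0.53 and 0.37 (adjusted p = 0.00434, 0.00335 and 0.0213). The Igfbp7 call was lost without young section 1 (0.35, adjusted p = 0.0576) or young section 2 (0.34, adjusted p = 0.0616). Igf1 was lower (-0.53, adjusted p = 0.0234), a call lost without young section 4 (-0.46, adjusted p = 0.0793) or capture area 3 (-0.37, adjusted p = 0.0532). These spots were shallower, with medians of 10380 UMIs against 18571 in the rest, and they shared 34.6% of spots with the smooth muscle class.

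Macrophage-rich spots (background 7.19%, of which 4.38% higher and 2.81% lower) had Igfbp4 at 380 to 1407 CPM against 197 to 1120 CPM, higher in 8 of 8 sections (0.68 ± 0.15, edgeR adjusted p = 0.0101). Without capture area 3 it was 0.64 (adjusted p = 0.0679). Igfbp3 was lower (-0.99, adjusted p = 0.0226), but at -0.67 (adjusted p = 0.088) without aged section 4, -0.93 (0.0508) without aged section 1 and -0.81 (0.0887) without young section 4. Oocyte-rich spots (background 19%, of which 8.74% higher and 10.3% lower) had lower Igfbp3 in 7 of 8 sections, at 8.57 to 126 CPM against 12.8 to 198 CPM (-0.82 ± 0.12, adjusted p = 0.00015). Igfbp5 (0.75), Igfbp7 (-0.40) and Igfbp4 (-0.37) also passed there, and each was lost without young section 2, at 0.59, -0.38 and -0.29 (adjusted p = 0.126, 0.0594 and 0.179). Igfbp5 was also lost without young section 1 or 4, Igfbp7 without aged section 2, and Igfbp4 without aged section 2 or 3 or young section 1 or 4 (adjusted p = 0.0519 to 0.135). The oocyte class shared 17.7% of its spots with the surface epithelium class and 19.8% with the granulosa class. Summed oocyte markers were only at 33.0 to 41.1 CPM in aged sections 1, 2 and 4 and at 36.4 CPM in young section 3. The top 10% of spots of those sections were thus picked on few marker UMIs.

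A second view used 16 regions, formed by clustering the spots on genes other than these 8 and their pathway. For a test a region needed 6 or more sections with 15 or more spots each, which R1, R2 and R3 had. R1 (1175 spots) was led by Ccl21a, Adh1, Tbx3, Agt and Myh11. Of the 8 genes, 6 passed in R1, where 37.3% of 12507 genes did (18.3% higher and 19% lower). Igf1 was at 40.8 to 103 CPM in R1 against 68.8 to 209 CPM in the rest (-0.94 ± 0.14, edgeR adjusted p = 0.00015). Igfbp2, which can promote or inhibit the ligand depending on tissue, was at 39.8 to 258 CPM against 38.9 to 101 CPM (0.83 ± 0.21, adjusted p = 0.00548). Igfbp4 was higher in 8 of 8 sections (0.53 ± 0.089, adjusted p = 0.000318) and Igfbp6 in 7 of 8 (0.56 ± 0.16, adjusted p = 0.011). The Igfbp4 call was lost at a clustering resolution of 0.6 (0.15, adjusted p = 0.385) and the Igfbp6 call with values centred within capture areas (0.36, adjusted p = 0.144). The regions matched to R1 in those clusterings shared 0.52 and 0.55 of the joined spots with it (Jaccard index) and rested on 6 and 4 sections. Igfbp3 (-0.81) and Igf1r (-0.38) were lower, with adjusted p of 0.00347 and 0.008.

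R2 (748 spots) was led by Slc18a2, Cnmd, Apoa4, Wfdc10 and Rgs2, with 1 oocyte and 1 granulosa marker among its 10 leading genes. Of the 8 genes, 5 passed, where 38.8% of 13000 genes did (19.7% higher and 19.1% lower). Igf1 did not pass (0.45 ± 0.29, edgeR adjusted p = 0.245), and was higher in R2 in 5 of 7 sections. Igfbp6, lower in granulosa-rich spots, did not pass in R2 (0.0034, adjusted p = 0.994), nor did Igfbp2 (0.20, adjusted p = 0.615). Igfbp3 was lower in 7 of 7 sections, at 8.53 to 60.9 CPM against 13.1 to 203 CPM (-1.56 ± 0.20, edgeR adjusted p = 6.07e-05). Igfbp4 was at 175 to 606 CPM against 226 to 1180 CPM (-1.03 ± 0.19, adjusted p = 0.000944) and Igfbp7 at 610 to 914 CPM against 705 to 1527 CPM (-0.56 ± 0.11, adjusted p = 0.00174). Igfbp5 was higher in R2 (0.77 ± 0.28, adjusted p = 0.0414), while it was lower in granulosa-rich spots. The Igfbp5 call in R2 was lost in 8 of 12 alternatives, among them leaving out aged section 4 or any young section (adjusted p = 0.0686 to 0.126). The Igf1r call (0.41 ± 0.14, adjusted p = 0.0339) was lost in 7 of 12, among them leaving out aged section 3 or any young section (adjusted p = 0.072 to 0.126). R3 (404 spots) was led by Malat1, Gm42418 and mitochondrially encoded genes and was shallow, with a median of 6782 UMIs. Igfbp3 alone passed there (-0.98 ± 0.21, adjusted p = 0.00909; background 2.75%, of which 1.28% higher and 1.47% lower), and did not without aged section 1 (-0.77, adjusted p = 0.0847).

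**Figure D3:**
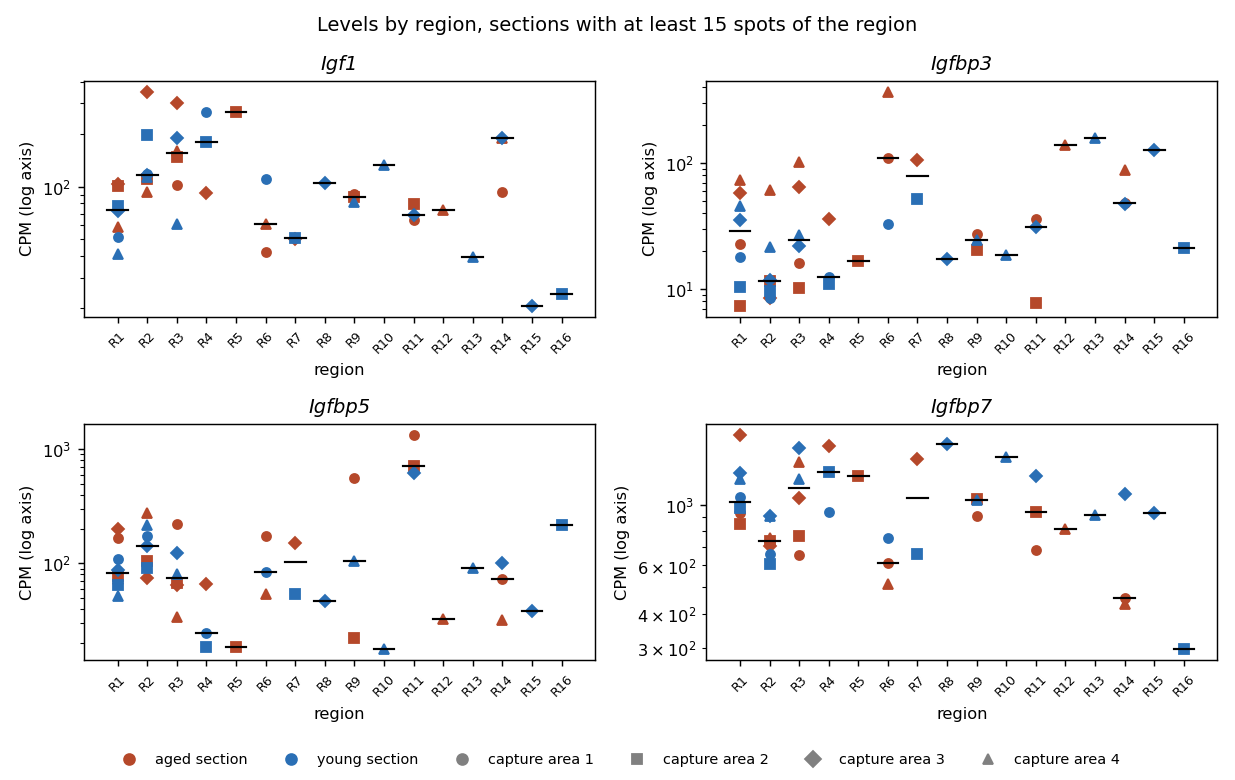
CPM (log axis) of 4 genes in each region, 1 point per section with at least 15 spots of the region, coloured by age and marked by capture area; bars are medians. Igfbp5 was highest in R11 in the 3 sections that held it, and Igfbp3 was above 100 CPM in aged sections of R3, R6 and R7 and in R12, R13 and R15.

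The other 13 regions had too few sections for a test, and their levels are descriptions. R11 (119 spots), led by Upk3b, Krt19, Angptl7, Lgals2 and Lhx9, had 4 of its 10 leading genes on the surface epithelium list. There Igfbp5 was at 1335 and 716 CPM in aged sections 1 and 2 and at 624 CPM in young section 3. The next highest Igfbp5 value of any region was 556 CPM, in R9 of aged section 1. R16 of young section 2, with 3 oviduct epithelium markers among its 10 leading genes, had 219 CPM against 61.5 CPM in the rest. R14 (94 spots), led by Inhbb, Nap1l5, Inhba, Nppc and Cyp19a1, had 4 of 10 on the granulosa list. Igf1 was there at 92.7 and 189 CPM in aged sections 1 and 4 and at 189 CPM in young section 3. Such levels of Igf1 were not particular to R14. R5 of aged section 2 had 266 CPM (106 CPM in the rest) and R10 of young section 4 had 133 CPM (60.2 CPM). R4 had 267 CPM in young section 1 (97.3 CPM), 179 CPM in young section 2 (111 CPM) and 91.9 CPM in aged section 3 (222 CPM). Igf1 was below the rest in every section of R6, R7, R11, R12, R13, R15 and R16. Igfbp7 in R14 was at 457 and 434 CPM in the aged sections and at 1095 CPM in the young one.

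Igfbp3 was above the rest of its section in different regions of different animals. R6, led by Ssu2, Kcnj16, Bace2, Cited1 and Hsd17b7, had 368 CPM in aged section 4 (113 CPM in the rest of that section), 109 CPM in aged section 1 (29.5 CPM) and 32.8 CPM in young section 1 (11.8 CPM). R7, led by Hsd17b7, S100g, Lrrn1, Saa2 and Ltbp1, had 107 CPM in aged section 3 (20.1 CPM in the rest) and 52.1 CPM in young section 2 (10.9 CPM). R13 of young section 4, led by Ramp1, Sprr1a, Far1, Rnf152 and Krt7, had 158 CPM against 31.9 CPM in the rest. R15 of young section 3, led by Ssu2, Hsd17b7, Cited1, Bace2 and Cst8, had 127 CPM against 23.8 CPM. Hsd17b7 was thus among the 5 leading genes of R6, R7 and R15, and not of R13. R12 of aged section 4, led by Spp1, Nupr1, Timp1, Akr1c18 and S100g, had 140 CPM, below the 228 CPM of the rest of that section. In R4 and R9, which like R12 had Akr1c18 among their 5 leading genes, Igfbp3 was at 11.0 to 35.7 CPM. Akr1c18 encodes a progesterone-degrading enzyme of the late corpus luteum, and Hsd17b7 an enzyme of cholesterol and oestradiol synthesis that is high in luteal cells. In corpus luteum-rich spots as a class, Igfbp3 did not pass (log2 fold change 0.24, edgeR adjusted p = 0.486).

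**Figure D4:**
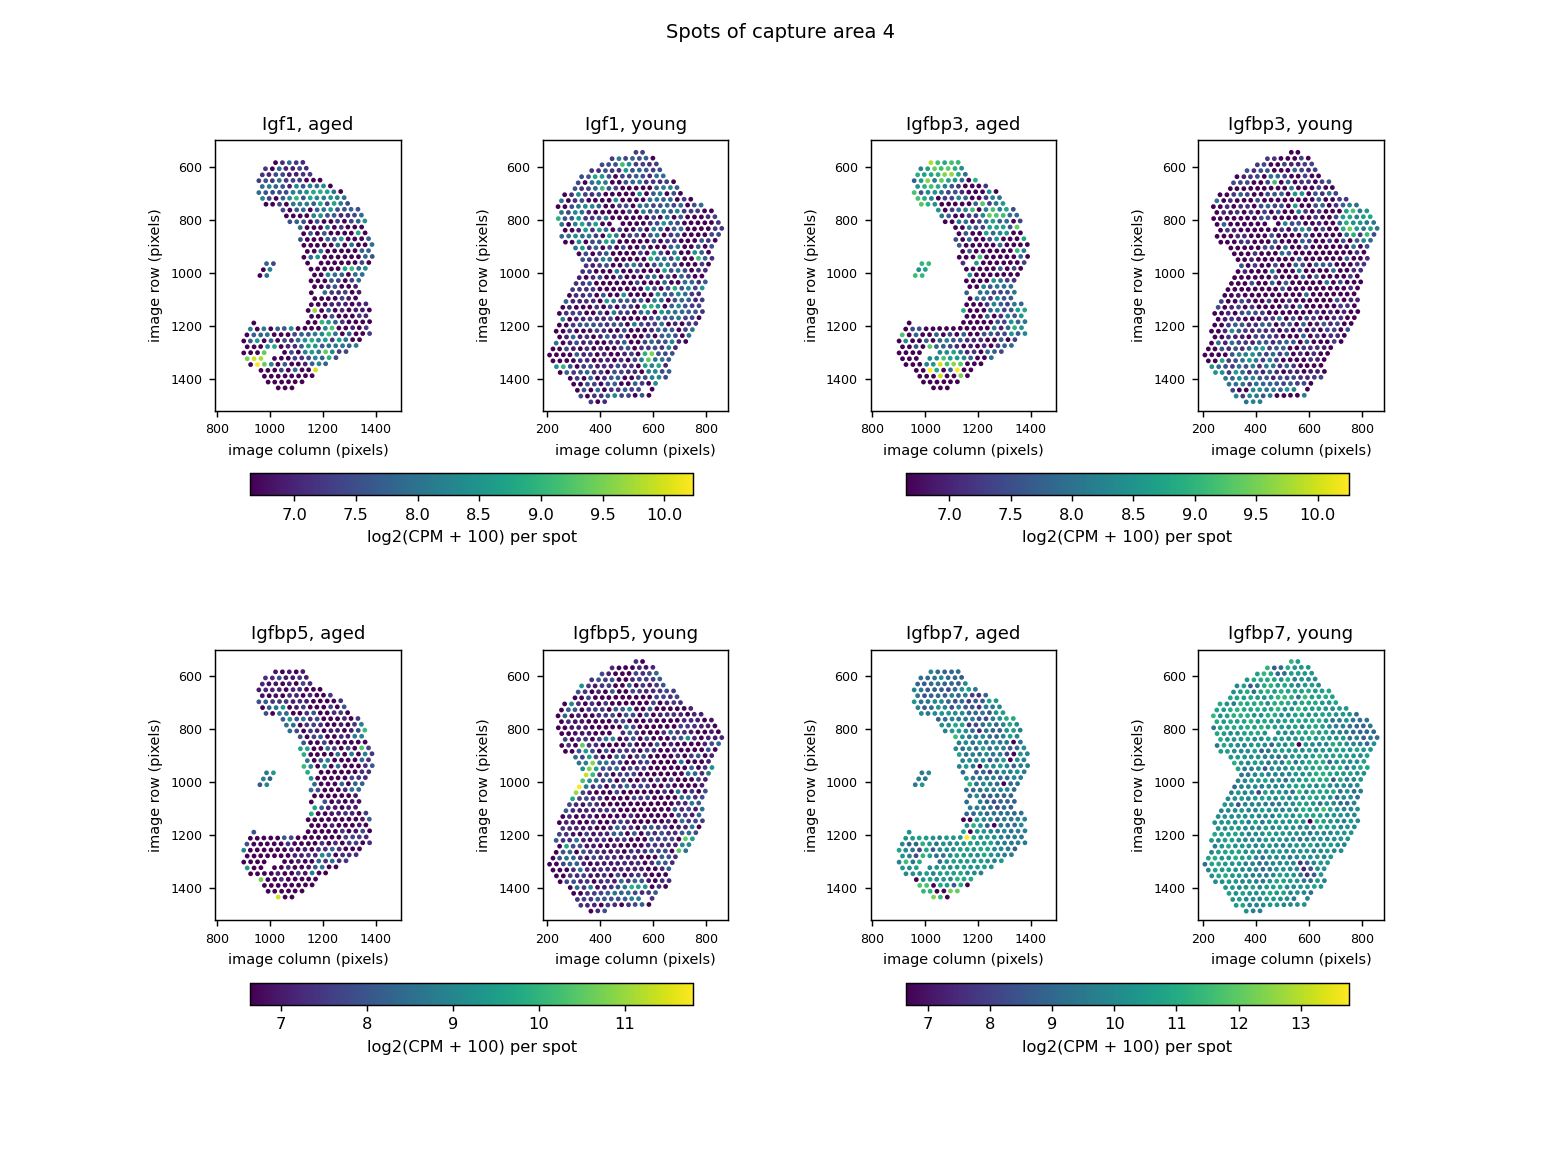
Spots of capture area 4 at their image positions (pixels), aged section left and young section right for each of 4 genes, coloured by log2(CPM + 100) per spot on a scale shared by the pair. Igfbp5 is brightest in a strip along the edge of the young section, Igfbp3 in patches of both sections, and Igfbp7 is spread widely.

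The patchiness of each gene was described by Moran's I over neighbouring spots, which is near 0 for a random scatter and nears 1 for smooth patches. The median over 8 sections was 0.39 for Igfbp4 and Igfbp6, 0.37 for Igfbp7, 0.34 for Igf1, 0.29 for Igfbp5, 0.27 for Igfbp3 and 0.19 for Igfbp2. It was 0.069 for Igf1r, the least patchy of the 8. In aged section 1, Igf1 had a value of 0.017, the lowest of any section for that gene, and in aged section 2 Igfbp3 had 0.017. Depth and the number of UMIs of a gene affect this measure, so genes were not ranked by a test.

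Within sections some pairs of the 8 genes varied together. Correlations were taken over the spots of each section and are descriptions, since spots share a library and depth. Igfbp4 and Igfbp7 (mean Pearson r = 0.35), Igfbp4 and Igfbp6 (0.28), Igfbp6 and Igfbp7 (0.25), Igfbp5 and Igfbp6 (0.21), Igfbp2 and Igfbp4 (0.13) and Igfbp2 and Igfbp7 (0.068) were positive in 8 of 8 sections. With spots thinned to 5000 UMIs these were 0.28, 0.19, 0.15, 0.14, 0.070 and 0.024. Igfbp4 with Igfbp5 averaged 0.057 and Igfbp5 with Igfbp7 averaged 0.0018. The most negative pair was Igfbp3 with Igfbp6, at -0.12 and positive in 1 of 8 sections. Igf1 with Igfbp3 and Igf1 with Igfbp5 averaged -0.11 each and were positive in 1 of 8 sections. Igf1 with Igf1r averaged 0.045.

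The genes most like each of the 8 over spots were sought among those with a UMI in at least 10% of spots. Igfbp5 was most like Upk3b (mean r = 0.46), Krt19 (0.42) and Lgals2 (0.41), and Igfbp3 most like Hsd17b7 (0.32), Hmgcs1 (0.32) and Ltbp1 (0.31). Igfbp4 was most like Apoe (0.46), H2-D1 (0.38) and Mgp (0.38). Igfbp7 was closest to Mgp (0.42), Apoe (0.38) and Pcolce (0.37), and Igfbp6 to Rarres2 (0.40), Apoe (0.39) and Serping1 (0.38). Igf1 was closest to Htra1 (0.30), Ctsl (0.30) and Gch1 (0.25). Htra1 encodes a secreted protease that can cut binding proteins, and it is on the pathway list. Igfbp2 was closest to Gstm1 (0.27), Gstm2 (0.25) and Adh1 (0.24), with values over sections that ran down to -0.18 for Gstm1. For Igf1r the highest were Ivns1abp (0.16), Gja1 (0.15) and Nr5a2 (0.14), which are weak.

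None of the 8 genes passed a test between ages in whole sections. In edgeR's quasi-likelihood test of 4 aged against 4 young sections, 0 of 14044 genes passed (0%), with 392 at an unadjusted p under 0.05, and DESeq2 called 6 (0.0427%), none of them among the 8. Without capture area 3, 0 of 14134 genes passed and 1261 had an unadjusted p under 0.05. The smallest adjusted p was then 0.122 over all genes and 0.670 among the 8, where it was 0.823 over all genes in all sections. Every one of the 8 genes overlapped between the ages, where 1.38% of all genes did not, and each had an adjusted p of 1 after rounding in the test of all sections.

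Igf1 was at 69.7, 161, 203 and 83.8 CPM in aged sections 1 to 4 and at 144, 131, 92.4 and 70.3 CPM in young sections 1 to 4. The aged section was the higher in 3 of 4 areas, and the log2 fold change, aged over young, was 0.22 ± 0.37 (SE, n = 4 per age). Without capture area 3 it was -0.076, and under all alternatives it ran between -0.076 and 0.42. Igf1r was at 58.8, 65.5, 137 and 92.6 CPM in aged and 73.0, 72.8, 84.0 and 65.3 CPM in young sections (0.25 ± 0.21). Its fold change was 0.074 without area 3 and 0.055 to 0.39 under the alternatives. Aged section 3 was the highest for both the ligand and the receptor.

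Igfbp3 had the largest log2 fold change of the 8, and the largest standard error. It was at 59.6, 12.9, 46.1 and 194 CPM in aged sections 1 to 4 and 12.8, 19.4, 48.1 and 56.4 CPM in young sections. The mean was 78.0 ± 79.5 CPM in aged and 34.2 ± 21.3 CPM in young sections (SD, n = 4 per age), with a log2 fold change of 1.25 ± 0.72 (SE). Under the alternatives, leaving out single sections included, this ran between 0.19 and 1.62, and it was 1.61 without area 3.

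Igfbp4 was at 363, 1129, 328 and 233 CPM in aged sections 1 to 4 and at 357, 463, 891 and 394 CPM in young sections 1 to 4. The log2 fold change was 0.087 ± 0.54, and it was -0.79 without aged section 2, the highest of all, and 0.59 without area 3. Igfbp5 was at 255, 86.0, 121 and 65.8 CPM in aged and at 111, 66.3, 109 and 113 CPM in young sections (0.42 ± 0.38). Aged section 1 was the highest, and without it the log2 fold change was -0.13. Without area 3 it was 0.51, and the alternatives gave -0.13 to 0.64. Igfbp2 was at 125, 87.8, 40.3 and 74.2 CPM in aged and at 56.1, 65.9, 55.7 and 101 CPM in young sections (0.28 ± 0.36), with the lowest value in aged section 3. Without area 3 this was 0.41, in a range of 0.025 to 0.53 over the alternatives.

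Igfbp6 was at 195, 261, 100.4 and 208 CPM in aged sections and at 240, 227, 296 and 246 CPM in young sections (-0.33 ± 0.31). Igfbp7 was at 667, 1006, 1145 and 708 CPM in aged and at 835, 896, 1339.6 and 1132 CPM in young sections (-0.22 ± 0.24). Both were lower in the aged section in 3 of 4 areas. Without area 3 the log2 fold changes were -0.049 for Igfbp6 and -0.20 for Igfbp7, and over the alternatives they ran between -0.59 and -0.049 and between -0.37 and -0.11. Summed endothelial markers (11 of 11 measured) were at 508 to 689 CPM in aged and 717 to 994 CPM in young sections. Their part in the age values of Igfbp4, Igfbp6 and Igfbp7 was not tested.

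**Figure D5:**
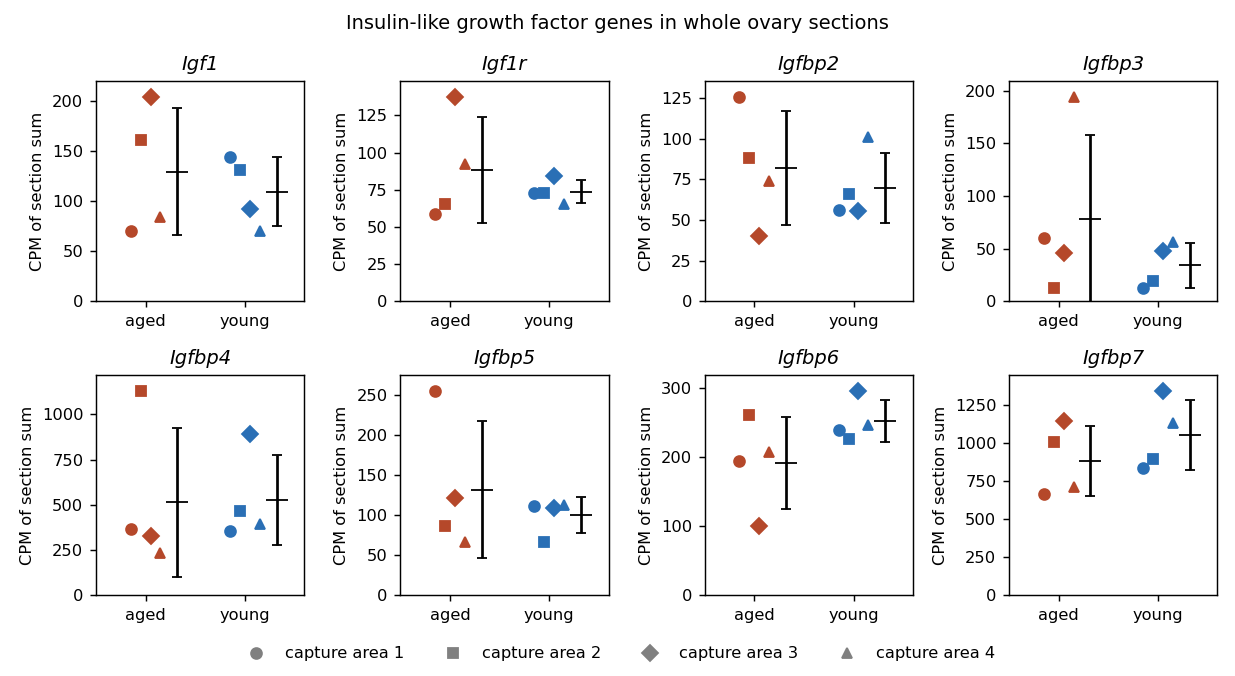
CPM of each gene in whole sections, aged left and young right, 1 point per section with its capture area as the marker; the black line is the mean ± SD (n = 4 per age; the lower bar of aged Igfbp3 runs below 0 and is clipped). The ages overlap for all 8 genes, and aged section 2 stands above the others for Igfbp4.

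Shares of spots with a UMI moved when depth was made equal. Igf1 was found in 62.7% of aged and 71.1% of young spots (means of 4 sections), but in 40.6% and 35.7% after every spot was thinned to 5000 UMIs. Igf1r was found in 56.2% and 70.3%, and after thinning in 34.6% and 30.3%. Thinning left out 280 aged and 110 young spots with fewer UMIs. Thinned Igfbp6 was found in 55.1 ± 16.5% of aged and 67.8 ± 4.25% of young spots (SD, n = 4).

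Age was also tested within the classes. In the 9 marker-rich classes, 0 of 72 tests of the 8 genes passed, with a lowest edgeR adjusted p of 0.968. The highest background was 0.0501%, in smooth muscle and pericyte-rich spots. In R1 and R2 none passed, where 0 of 11382 and 2 of 10671 genes (0.0187%) did. Without area 3, none of the 8 genes passed in any of the 9 classes or in R1 and R2 (lowest adjusted p = 0.151, in oocyte-rich spots). The number of all genes called was then 0 to 47 in the classes, highest in oocyte-rich spots (47 of 9640). It was 5 of 11722 in R1 and 11 of 12335 in R2. R2 then rested on 5 sections, with aged sections 2 and 4 alone for the aged, under the minimum of 3 per age set for regions. Areas 1, 2 and 4 had summed oocyte markers at 33.0 to 41.1 CPM in aged and 182 to 561 CPM in young sections. The part of this difference in the calls of the oocyte class was not tested. Across the 72 tests of all sections the log2 fold change, aged over young, ran between -0.83 and 1.64. The difference of the age effect between marker-rich spots and the rest was tested as an interaction, and 0 of 72 passed, where the highest background was 0.00816% (lowest adjusted p = 0.347, Igfbp4 in surface epithelium-rich spots, at 0.97 ± 0.22). Of the 72 gene and class pairs, only Igf1 in surface epithelium-rich spots had ages that did not overlap, and it is given for that reason. It averaged 99.9 ± 12.7 CPM in aged and 71.8 ± 19.3 CPM in young sections (edgeR adjusted p = 0.997). The share of all genes without overlap was not counted in the classes.

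The other genes of the pathway were described from a list of 29, covering further ligands, receptors, proteases and inhibitors and the intracellular relay. In whole sections 22 were tested and none passed between ages, with or without area 3. The largest fold changes were of Pappa, the protease that cuts IGFBP4, at 8.36 ± 5.45 CPM in aged and 4.10 ± 3.49 CPM in young sections (log2 fold change 1.04), and of the stanniocalcin genes Stc1 (-0.99) and Stc2 (0.79). Ghr, the growth hormone receptor, was at 15.4 to 20.9 CPM in aged and 23.7 to 40.5 CPM in young sections, and Grb10, an adaptor that restrains insulin and IGF1 receptors, at 12.3 to 21.9 CPM and 25.4 to 31.1 CPM. These 2 of the 22 did not overlap between the ages, against 1.38% of all genes.

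The pathway genes were also compared between tissue classes. In granulosa-rich spots 4 of 18 passed and all were higher, a smaller share than the 43.9% of all genes that passed there and close to the 21.2% that were higher. They were Foxo1, a transcription factor that the pathway restrains (2.47), the adaptor gene Grb14 (1.22) and the receptor substrates Irs1 (0.87) and Irs2 (0.77), each with an edgeR adjusted p of at most 0.013. In corpus luteum-rich and in theca and interstitial-rich spots 7 of 18 and 7 of 19 passed, all lower, where 12.6% and 10.5% of all genes were lower, with Stc1 at -1.87 and -1.51 and Stc2 at -1.81 and -1.44. Igf2, the second ligand, was higher in endothelium-rich (2.30), smooth muscle-rich (1.95) and R1 spots (1.61), though at 1.77 to 7.11 CPM in aged and 1.62 to 4.85 CPM in young whole sections its counts were few. Surface epithelium-rich spots had higher Stc2 (1.78), Igf2bp2 (1.52) and Ghr (0.67) and lower Grb14 (-0.47) and Htra1 (-0.34). In R2, Pappa was lower (-1.50, adjusted p = 0.0017), as Igfbp4 was.

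In the other classes the pathway genes that passed were 2 higher of 19 in oocyte-rich spots (background 19%), 4 higher and 2 lower of 19 in stromal fibroblast-rich (21.7%), 4 and 3 of 19 in smooth muscle-rich (24.8%), 2 and 4 of 19 in endothelium-rich (17.3%), 3 and 2 of 21 in surface epithelium-rich (17.2%) and 1 and 1 of 18 in macrophage-rich spots (7.19%). In the regions they were 6 higher and 4 lower of 21 in R1 (37.3%), 6 and 1 of 21 in R2 (38.8%) and 1 lower of 18 in R3 (2.75%). The further genes that passed are given by class, as log2 fold changes over the rest. Foxo1 was lower in corpus luteum-rich (-1.44), theca and interstitial-rich (-1.54), endothelium-rich (-1.04), macrophage-rich (-0.71), smooth muscle-rich (-0.28), R1 (-0.81) and R3 spots (-0.73), and higher in oocyte-rich (0.53) and R2 spots (2.18). Pik3r1, a regulatory subunit of phosphoinositide 3-kinase, was lower in theca and interstitial-rich (-0.80), endothelium-rich (-0.75), smooth muscle-rich (-0.9981), stromal fibroblast-rich (-0.56) and R1 spots (-0.96). Grb14 was lower in corpus luteum-rich (-0.61), theca and interstitial-rich (-0.57) and endothelium-rich spots (-0.49), and higher in R2 (1.11). Irs2 was lower in corpus luteum-rich (-0.66) and theca and interstitial-rich spots (-0.90) and higher in R2 (1.02), as was Irs1 (0.53).

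Grb10 was higher in stromal fibroblast-rich (0.89), smooth muscle-rich (0.74) and R1 spots (0.51), and lower in corpus luteum-rich spots (-0.50). Of the stanniocalcin genes, Stc1 was higher in all 3 connective and vascular classes and Stc2 in the stromal fibroblast and smooth muscle classes. Stc1 was at 0.56 in stromal fibroblast-rich, 0.61 in smooth muscle-rich, 0.74 in endothelium-rich and 1.48 in R1 spots, and Stc2 at 0.65, 0.74 and 0.69 in stromal fibroblast-rich, smooth muscle-rich and R1 spots. Htra1 was lower in stromal fibroblast-rich (-0.31), smooth muscle-rich (-0.41), endothelium-rich (-0.32) and R1 spots (-0.57). Ghr was higher in stromal fibroblast-rich (0.36) and R2 spots (0.69) and lower in corpus luteum-rich (-0.55) and theca and interstitial-rich spots (-0.68). Igf2bp2, whose product binds Igf2 messenger RNA, was higher in oocyte-rich (2.43) and R2 spots (1.27). The kinase genes Akt1 (0.23) and Akt2 (0.27) were higher and Pik3ca (-0.34) lower in R1, and the adaptor gene Shc1 was higher in macrophage-rich spots (0.29).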

How the data were processed

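UMI counts per gene and spot were used as the authors deposited them, as whole numbers with no normalization. The deposited position files give other units (array and pixel positions). Space Ranger 1.2.1 and the build mm10 are named in the submitters' processing notes. Their annotation, filters and use of strand are not given here. The labels give a section thickness of 10 µm and 18 minutes of permeabilization. Of 4263 spots over tissue, 72 had no count column and were left out. Spots were assigned to a section by position, split at the widest gap.

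The 8 genes and all lists were chosen with earlier results of these data known. Counts were summed per section, since the animal is the replicate, and tested with edgeR 4.0.16 (TMM, filterByExpr, limma 3.58.1, R 4.3.3); CPM carry no TMM factors. Regions came from scanpy 1.11.5 and leidenalg 0.10.2 (2000 variable genes, 30 components, 20 neighbours, resolution 0.4, spots with at least 500 UMIs, values centred within sections). Marker-rich classes were added after seeing that 3 regions could be tested. The scripts were tested on simulated data. Named genes were the 8 genes and the 3 genes most like each of them. The pathway genes past the threshold, or else the 3 of largest change, were named too. The 5 leading genes are printed for R1, R2, R6, R7 and R11 to R15 and in part for R3, and not for the other regions. Ghr and Grb10 by age were chosen after their values were seen. DESeq2 1.42.0, other scalings, filters, region settings and left-out sections were alternatives. The capture area pairs the sections as a shared library; the deviations of paired sections correlated at 0.00258, 0.182, -0.194 and 0.205 across genes.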

Additional observations from a re-analysis of the deposited data

Results flagged for a closer look

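In whole sections, 2 of 16 groups of 4 sections held a value set apart from the others by more than Dixon's 95% criterion, where chance flags about 1 in 20 groups. Igfbp4 was at 1129 CPM in aged section 2, against 233 to 363 CPM in the other aged sections. Igfbp5 was at 66.3 CPM in young section 2, against 109 to 113 CPM in the other young sections.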

How the results depend on the processing

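Of 46 calls of the 8 genes in marker-rich spots and regions, 24 passed under every alternative tried, 22 were lost under at least 1, and none changed direction. In these comparisons 2.75% to 43.9% of all genes tested passed. The cause of the changes below was not tested. By age, DESeq2 called 6 genes in whole sections against 0. With capture area as replicate block the count was 0. Fold changes by age turned for Igfbp4 with library size alone (-0.035), with the replicate block (-0.22), and without aged section 2, young section 1 or young section 4 (-0.79 to 0.38 over all left-out sections), for Igf1 without capture area 3 (-0.076) and for Igfbp5 without aged section 1 (-0.13 to 0.64 over all left-out sections). The share of spots with a UMI, aged minus young, moved to 4.90 points for Igf1 and 4.40 points for Igf1r after thinning. Likeness moved to 0.26 for Upk3b with Igfbp5 (Spearman) and 0.22 for Serping1 with Igfbp6 (thinned).

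The number of the 8 genes called in R2 was 5, and 3 with values centred within capture areas or at least 30 spots per section (3 to 5 with a section left out). In R3 it was 1, and 0 at resolution 0.6 and 2 with values centred within capture areas (0 to 2). Reclustering compares partly other spots in fewer sections: the regions matched to R3 had Jaccard indices of 0.61 (resolution 0.6, 5 sections) and 0.36 (centred, 3 sections), and those matched to R2 of 0.44 (4 sections) and 0.87 (6 sections), and the minimum of 6 sections was not applied to them. In oocyte-rich spots it was 4, and 2 by DESeq2 or with the top 20% of spots (1 to 4). In granulosa-rich spots it was 7, and 3 with the top 20%. In macrophage-rich spots it was 2, and 1 without capture area 3 (1 to 4). Left-out sections gave 1 to 2 in corpus luteum-rich and 2 to 7 in smooth muscle-rich spots. Choosing spots by the marker list that leads a region was not run, since no tested region was led by such a list, and R3 had too few sections for a minimum of 30 spots. Depth limits the lowest values most, the shallowest section holding 2777948 UMIs.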
